A study of Homo sapiens with 8 samples.

Results

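The short arm of chromosome 17 was followed across 3 forms of one breast cancer line through 120 of its genes, out of 7550 genes tested. The members are the protein-coding genes whose lowest coordinate lies between 0 and 20 Mb of chromosome 17 (GRCh38) and whose mean count over the 8 samples, normalized by size factors, is above 5. Of 333 protein-coding genes there, 19 were left out by name (16 of them pass the minimum on the mean), and 194 had a mean of 5 or less. Of these 194, 131 had no read in any sample. The members were thus chosen by position and mean count. The arm itself was picked with results of these data known, so medians and counts over the list describe these samples and are not tested.

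The samples are MDA231 cells (MDA-MB-231, a mesenchymal, triple-negative breast cancer line), all grown in full medium to 70% confluency with no treatment. There were 2 samples of unmodified parental cells, 3 of SDHBKO cells and 3 of SDHBKOSDHAlow cells. SDHBKO cells were made with a TALEN against exon 1 of SDHB, the iron-sulfur subunit of respiratory complex II, and selected with hygromycin. SDHBKOSDHAlow cells are SDHBKO cells that also carry an shRNA plasmid against SDHA, the flavoprotein subunit, and were selected with puromycin. The effects of the knockdown, the plasmid and the puromycin cannot be told apart here. The sources do not say whether each modified line is 1 clone. The study's methods mark the sequenced SDHBKOSDHAlow cells SH1, and the sample labels name no shRNA. Nothing says how the biological replicates were separated, and p-values measure only the spread between these samples.

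Genes on a chromosome arm share no pathway, but they lie on 1 DNA molecule and can be gained or lost together. The short arm of chromosome 17 carries genes used by nearly every cell, such as POLR2A (the largest subunit of RNA polymerase II) and UBB (a polyubiquitin). It is often lost in breast cancer. Copy number was not measured in these libraries.

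RNA was sequenced from its 3' end, with 773042 to 1427141 reads on genes per library. Levels are given as CPM, counts scaled to a common library size, and a count of 3 is worth 2.1 to 3.9 CPM. Reads of SDHA numbered 64 and 69 (parental), 108, 121 and 140 (SDHBKO), and 7, 17 and 16 (SDHBKOSDHAlow), so that the last group was the lowest. SDHB had at most 4 counts in any library, parental ones included, and its 3' reads lie outside the edited exon and check nothing. Markers of the line (VIM, CD44, AXL, KRT18, SPARC) had 10 or more counts in every library. ESR1, PGR, ESRP1 and the leukocyte and fibroblast markers PTPRC and DCN were at 0 in all, and ERBB3, CDH1, EPCAM, PECAM1 and COL1A1 had at most 4. SDHBKOSDHAlow replicate 2 was the deepest library and stood farthest from its own group. Reads that fell on no single gene made up 26% to 28.6% of SDHBKO libraries against 18.8% to 24.4% of the other 5.

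The members stood, by their median, above the parental level in SDHBKO cells and below it in SDHBKOSDHAlow cells. For each sample, the level of the arm was taken as the median over the 120 members of log2 CPM minus the gene's mean over the 3 groups. It was -0.07 and 0.07 in parental cells, 0.29, 0.13 and 0.24 in SDHBKO cells, and -0.24, -0.12 and -0.23 in SDHBKOSDHAlow cells. All 3 SDHBKO samples were thus above, and all 3 SDHBKOSDHAlow samples below, both parental samples. The group means were -0.0024 ± 0.10 (SD, n = 2), 0.22 ± 0.082 (SD, n = 3) and -0.20 ± 0.070 (SD, n = 3). The same measure over all 7550 genes ran from -0.0087 to 0.029, and over the 396 tested genes on the rest of chromosome 17 from -0.030 to 0.062. SDHBKOSDHAlow replicate 2, the deepest library, was the highest of its group on the arm, and the 3 SDHBKO libraries, high on the arm, are those with the most reads on no single gene. The part of depth and of these reads in the levels was not tested. In bulk RNA, fewer cells of a kind and less RNA per cell cannot be told apart.

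**Figure D1:**
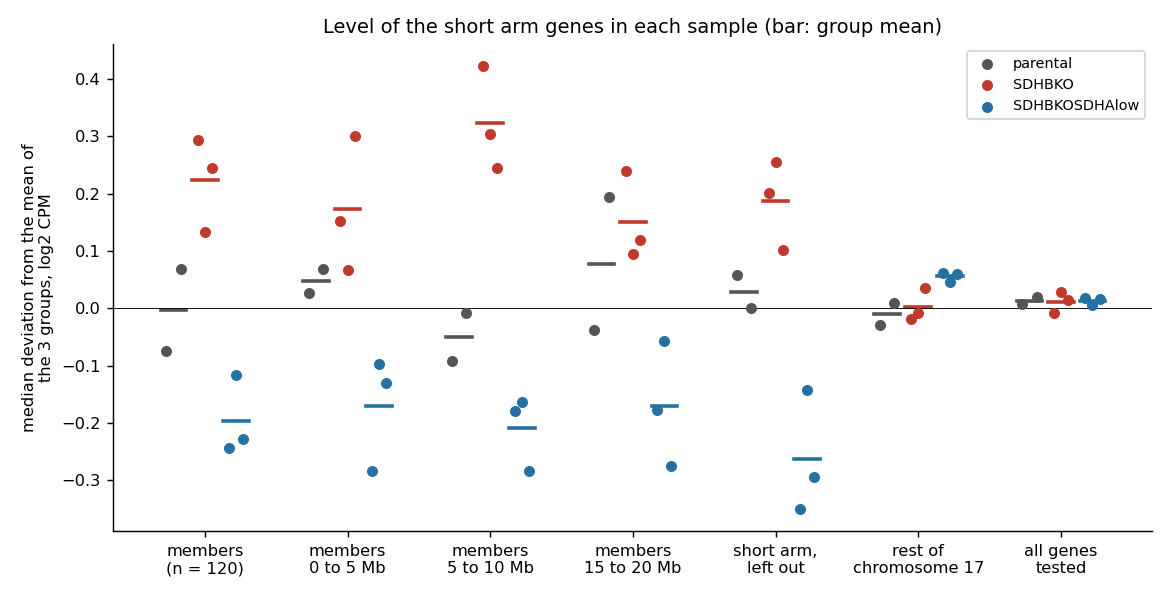
Level of the short arm genes in each of the 8 samples, as the median over genes of log2 CPM minus the gene's mean over the 3 groups (vertical axis), for the members, the members by position, the short arm genes left out by name, the rest of chromosome 17 and all genes tested. Points are samples and bars are group means. SDHBKO samples lie at 0.13 to 0.29 and SDHBKOSDHAlow samples at -0.24 to -0.12 for the members, while for all genes every sample lies near 0.

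Against parental cells, SDHBKO cells had higher fitted levels of most members. The median log2 fold change over the members was 0.19 (quartiles -0.11 and 0.58), against -0.00069 over all genes tested, and it was 0.316 without parental replicate 2. Of the members, 41 (34.2%) were below 0 against 50.1% of all genes. With edgeR's quasi-likelihood test and a Benjamini-Hochberg adjusted p below 0.1 over all genes, 8 members rose, against a background of 3.14% of all genes called higher, and 0 fell, against 2.4% called lower. At an unadjusted p below 0.05, 17 members were higher and 7 lower in edgeR, against 9.13% and 8.34% of all genes. DESeq2, at an adjusted p below 0.1, called 10 members higher and 1 (CLUH) lower, of 59 members to which it gave an adjusted p, against 8.3% and 4.14% of all 3168 genes with one. In 36 members every SDHBKO sample was above both parental samples (19.3% of all genes were), and in 9 every SDHBKO sample was below them (18.6% of all genes).

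Against SDHBKO cells, SDHBKOSDHAlow cells had lower fitted levels of most members, and few passed the test singly. The median was -0.41 (quartiles -0.70 and -0.13), a ratio of 0.751, against 0.013 over all genes. Below 0 were 102 members (85.0%) against 48.9% of all genes. In edgeR 8 members fell, where 1.19% of all genes were called lower, and 0 rose, where 0.318% were called higher. At an unadjusted p below 0.05 no member was higher and 35 were lower in edgeR, against 5.46% and 6.66% of all genes. DESeq2 called 9 lower and 0 higher of 84 members with an adjusted p, against 2.11% and 0.735% of all genes with one. In 34 members every SDHBKOSDHAlow sample was below every SDHBKO sample (8.7% of all genes), and in 2 every one was above (8.73% of all genes). No member was higher by 1.5 times or more, and 36 were lower by that much, against 759 higher and 870 lower of all 7550 genes.

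Against parental cells, SDHBKOSDHAlow cells had lower fitted levels of more members than higher ones, but by less. The median was -0.18 (quartiles -0.48 and 0.067) against 0.018 over all genes. In 82 members (68.3%) the value was below 0, against 48.6% of all genes. No member passed the edgeR test, where 0.954% of all genes did in either direction. At an unadjusted p below 0.05 in edgeR, 1 was higher and 11 (9.17%) were lower, against 5.84% and 6.42% of all genes. DESeq2 called 1, CLUH, lower and 0 higher of 74 members with an adjusted p, against 1.09% and 0.908% of all genes with one. Every SDHBKOSDHAlow sample was below both parental samples in 35 members (15.5% of all genes) and above both in 4 (15.2% of all genes). The 3 comparisons share samples, so none supports another. A member high in the 3 SDHBKO samples is higher in the first comparison and lower in the second by the same values.

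**Figure D2:**
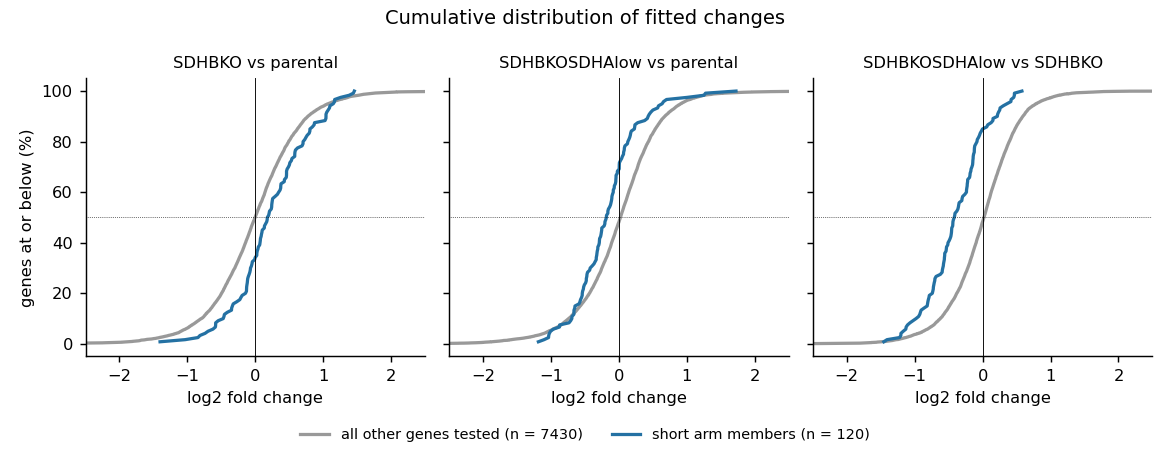
Share of genes (vertical axis, %) at or below each fitted log2 fold change (horizontal axis) in the 3 comparisons, for the 120 members and the 7430 other genes tested. The members' line lies to the right of the other genes' line in SDHBKO vs parental and to its left in SDHBKOSDHAlow vs SDHBKO, where 102 of 120 members are below 0.

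In all, 5 members passed the test in both comparisons that involve SDHBKO cells. Both use the same SDHBKO samples, and the share of all genes that passed in both is not given here. The count of 5 therefore only orders the genes and is not a result about the arm. FXR2 is an RNA-binding relative of the fragile X protein, P2RX5 a subunit of ATP-gated ion channels and CENPV a protein of the centromere. MPDU1 is needed for the use of dolichol-linked sugars in glycosylation, and RANGRF binds the GTPase Ran. FXR2 (ENSG00000129245; chr17:7591230-7614897, minus strand) had 166 and 206 CPM in parental cells, 389, 423 and 358 in SDHBKO cells and 197, 206 and 223 in SDHBKOSDHAlow cells. All SDHBKO samples were above all other samples, and the other groups overlapped. The log2 fold change was 1.07 (SE 0.22, edgeR adjusted p = 0.012) in SDHBKO against parental cells and -0.90 (SE 0.19, edgeR adjusted p = 0.021) in SDHBKOSDHAlow against SDHBKO cells.

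P2RX5 (chr17:3672199-3696240, minus strand) was at 73.2 and 65.6 CPM in parental cells, 135, 147 and 142 in SDHBKO cells and 71.5, 61.9 and 69.4 in SDHBKOSDHAlow cells. CENPV (chr17:16342534-16353656, minus strand) was at 96.0 and 94.4 CPM in parental cells, 200.1, 161 and 162 in SDHBKO cells and 89.4, 84.0 and 65.0 in SDHBKOSDHAlow cells. For both genes the SDHBKO samples stood clear of all others, and for CENPV the SDHBKOSDHAlow samples were also all below the parental ones. The log2 fold changes of P2RX5 were 1.03 (SE 0.25, edgeR adjusted p = 0.031) and -1.07 (SE 0.21, adjusted p = 0.014), in the same order of comparisons. Those of CENPV were 0.87 (SE 0.25, edgeR adjusted p = 0.061) and -1.13 (SE 0.22, adjusted p = 0.012).

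MPDU1 (chr17:7583529-7592789, plus strand) varied more within SDHBKO cells, at 284, 127 and 206 CPM, against 75.4 and 117 in parental cells and 87, 99.5 and 79.4 in SDHBKOSDHAlow cells. Its lowest SDHBKO sample was still above the highest of the others. RANGRF (chr17:8288654-8290092, plus strand) had 129 and 105 CPM in parental cells, 216, 187 and 238 in SDHBKO cells and 134, 129.7 and 105 in SDHBKOSDHAlow cells, again with SDHBKO above all others. The log2 fold changes of MPDU1 were 1.10 (SE 0.30, edgeR adjusted p = 0.056) and -1.20 (SE 0.26, adjusted p = 0.027). Those of RANGRF were 0.86 (SE 0.24, edgeR adjusted p = 0.056) and -0.80 (SE 0.21, adjusted p = 0.075). Of the 11 members called in any comparison, 10 overlap another protein-coding gene. In 5 of them the overlap holds the 3' ends of both genes on opposite strands, where 3' reads fall: MPDU1 and FXR2 with each other, CENPV with PIGL, MED31 with TXNDC17 and CYB5D2 with ANKFY1. The sources do not say whether counting used strand, so how reads were shared within these pairs is uncertain. The 3' ends of P2RX5, TRAPPC1 and RANGRF also lie inside another protein-coding gene.

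The bases before the RefSeq start of the members that passed in both comparisons were read for 2 short motifs. Only 2 windows are printed, which cannot show what the 5 genes share. RefSeq (GRCh38.p14) gave windows for 106 of the 120 members and for 4 of these 5, and 2 windows, those of FXR2 and CENPV, hold no annotated untranslated stretch. Capitals mark GC boxes, the letters GGGCGG or, on the other strand, CCGCCC. Both windows are printed 5' to 3' on the minus strand, at chr17:7614898-7615147 for FXR2 and chr17:16353470-16353719 for CENPV. The FXR2 window begins just past the gene as given above, whereas 187 of the 250 bases for CENPV lie inside the gene as GENCODE bounds it, which includes a start further upstream.
FXR2: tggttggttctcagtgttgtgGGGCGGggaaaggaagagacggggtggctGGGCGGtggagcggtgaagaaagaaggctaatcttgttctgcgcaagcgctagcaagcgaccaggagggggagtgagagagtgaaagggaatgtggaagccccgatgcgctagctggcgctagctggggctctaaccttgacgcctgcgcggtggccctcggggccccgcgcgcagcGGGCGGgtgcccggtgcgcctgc
CENPV: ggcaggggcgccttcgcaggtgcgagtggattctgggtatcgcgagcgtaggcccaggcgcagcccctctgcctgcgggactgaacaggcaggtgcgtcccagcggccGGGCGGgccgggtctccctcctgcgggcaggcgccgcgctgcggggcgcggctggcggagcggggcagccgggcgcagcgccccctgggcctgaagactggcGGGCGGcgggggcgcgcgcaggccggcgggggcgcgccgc
FXR2 held 3 GC boxes and CENPV 2, and neither held a CCAAT box (CCAAT or, on the other strand, ATTGG, which can share letters with a GC box). Over all windows of the members, several for some genes, 70.2% of 161 held a GC box and 31.1% a CCAAT box, near the 67.2% and 33.2% of 8931 windows of all genes tested. These matches are letters in a window and say nothing of a factor bound there.

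A group of 3 members passed the test in SDHBKO against parental cells and in no other comparison. TRAPPC1 is a subunit of a complex that tethers vesicles at the Golgi and DLG4 a scaffold of synapses and cell junctions. MED31 is a subunit of Mediator, which joins transcription factors to RNA polymerase II. TRAPPC1 had 35.4 and 48.5 CPM in parental cells, 118, 94.5 and 115 in SDHBKO cells and 51.3, 84.7 and 47.4 in SDHBKOSDHAlow cells, with SDHBKO above all others and the other groups overlapping. Its log2 fold change was 1.38 (SE 0.31, edgeR adjusted p = 0.022) against parental cells, and -0.81 (SE 0.25) for SDHBKOSDHAlow against SDHBKO cells did not pass. DLG4 had 57.2 and 69.5 CPM in parental, 143, 160.4 and 123 in SDHBKO and 78.7, 107 and 58.4 in SDHBKOSDHAlow cells. Again the SDHBKO samples were the highest and the other groups overlapped (log2 fold change against parental cells 1.17, SE 0.28, edgeR adjusted p = 0.033). MED31 had 44.6 and 49.8 CPM in parental, 124, 85.7 and 104 in SDHBKO and 60.8, 74.4 and 54.0 in SDHBKOSDHAlow cells, so that its 3 groups did not overlap, with parental cells lowest (1.15, SE 0.28, edgeR adjusted p = 0.034).

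Another 3 members passed the test in SDHBKOSDHAlow against SDHBKO cells and in no other comparison. CYB5D2 is a heme-binding protein related to cytochrome b5, CAMTA2 a calmodulin-binding transcription activator and CHD3 a chromatin remodeler of the NuRD complex. CAMTA2 had 86.9 and 101 CPM in parental cells, 164, 157 and 133 in SDHBKO cells and 79.9, 56.0 and 67.2 in SDHBKOSDHAlow cells, and no 2 groups overlapped. Its log2 fold change was -1.17 (SE 0.22, edgeR adjusted p = 0.012) against SDHBKO cells. CYB5D2, at lower levels, had 17.1 and 21.0 CPM in parental, 43.3, 34.1 and 40.5 in SDHBKO and 14.3, 16.2 and 13.2 in SDHBKOSDHAlow cells, likewise without overlap (-1.41, SE 0.34, adjusted p = 0.050). CHD3 was less even, as SDHBKO cells had 44.6, 128.5 and 144 CPM against 46.5, 53.1 and 36.4 in SDHBKOSDHAlow and 61.7 and 69.5 in parental cells. One SDHBKO sample of CHD3 lay among the SDHBKOSDHAlow samples, and its adjusted p was the highest of the 8 calls in this comparison (-1.22, SE 0.32, edgeR adjusted p = 0.076).

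These calls rest on few libraries. All 8 calls of SDHBKO against parental cells were lost when either parental replicate was left out. Without SDHBKO replicate 1, 2 members passed, without SDHBKO replicate 3, 5, and without SDHBKOSDHAlow replicate 2, 17, 15 of them higher. In SDHBKOSDHAlow against SDHBKO cells the calls of FXR2, P2RX5, CENPV and CAMTA2 were kept in all 8 such fits. The number of members called was 4 without SDHBKO replicate 3 or SDHBKOSDHAlow replicate 3, 5 without replicate 1 of either group, and 25 without SDHBKOSDHAlow replicate 2, all of them lower. The share of all genes called in each of these fits is not given here. These counts thus show how far the calls depend on single libraries, and are not a result about the arm.

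**Figure D3:**
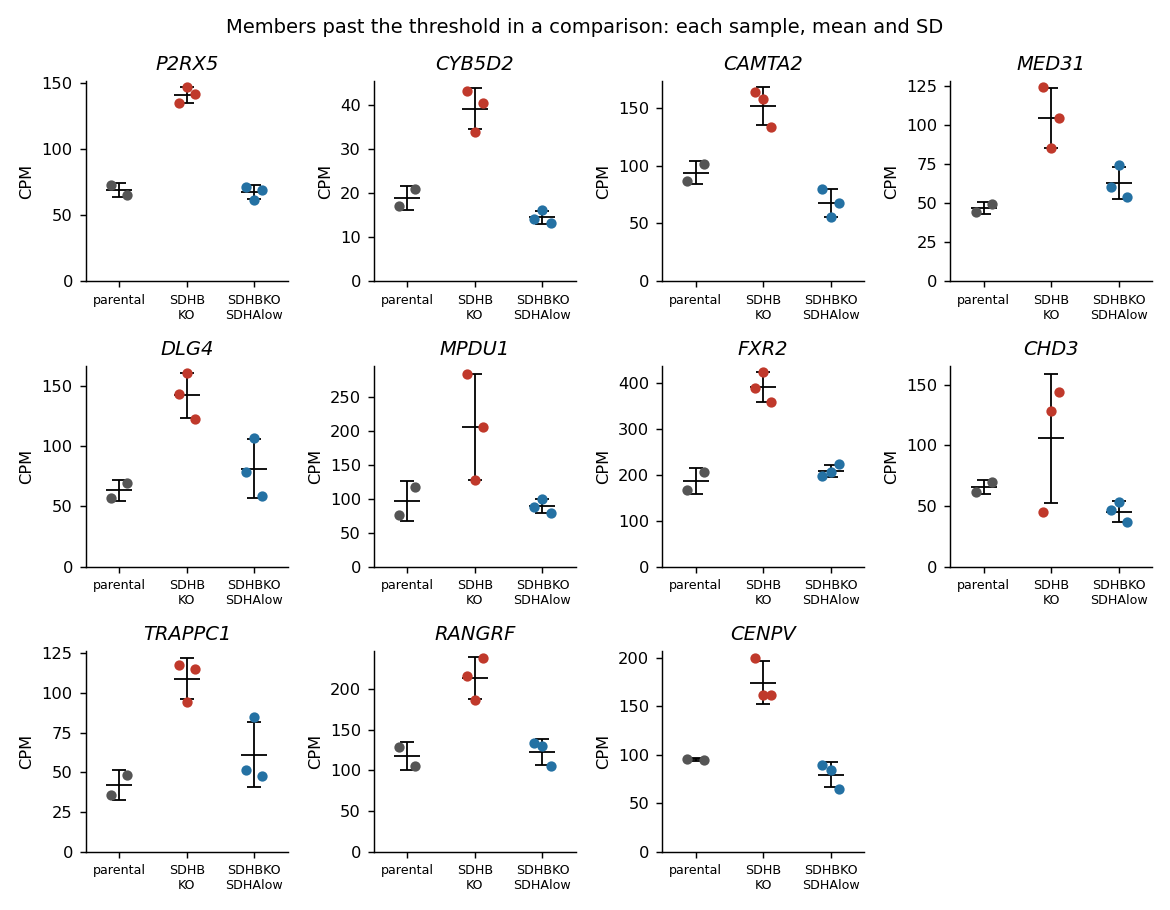
CPM in each sample (points), group mean (long bar) and SD (whiskers) of the 11 members that passed the test in at least 1 comparison, with every vertical axis starting at 0. SDHBKO samples lie above all others in 10 of the 11, and in CHD3 1 SDHBKO sample lies at 44.6 CPM, among the SDHBKOSDHAlow samples.

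Along the arm, the lower level in SDHBKOSDHAlow than in SDHBKO cells ran from the end of the chromosome to its last members. In windows of 5 Mb the median log2 fold change was -0.34 for 48 members from 0 to 5 Mb, -0.53 for 44 from 5 to 10 Mb and -0.33 for 26 from 15 to 20 Mb, with 42, 36 and 23 members below 0. From 10 to 15 Mb the 2 members were MAP2K4, a kinase upstream of JNK and p38 (0.47), and ELAC2, which trims the 3' ends of tRNAs (-0.44). For SDHBKO against parental cells the medians were 0.18, 0.25 and 0.042 in the 3 larger windows. Called higher were 1 (2.08%), 6 (13.6%) and 1 (3.85%) of their members, against 3.14% of all genes. Only the share from 5 to 10 Mb was far from that of all genes. The longest run of neighbouring members of 1 sign was 16 below 0 in SDHBKOSDHAlow against SDHBKO cells, from GLOD4 to SGSM2. It passes over a tested arm gene left out by name that stood above 0 (0.052). Long runs below 0 are likely where 85.0% of members are below 0, and neighbours can share reads (67 members overlap another protein-coding gene).

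**Figure D4:**
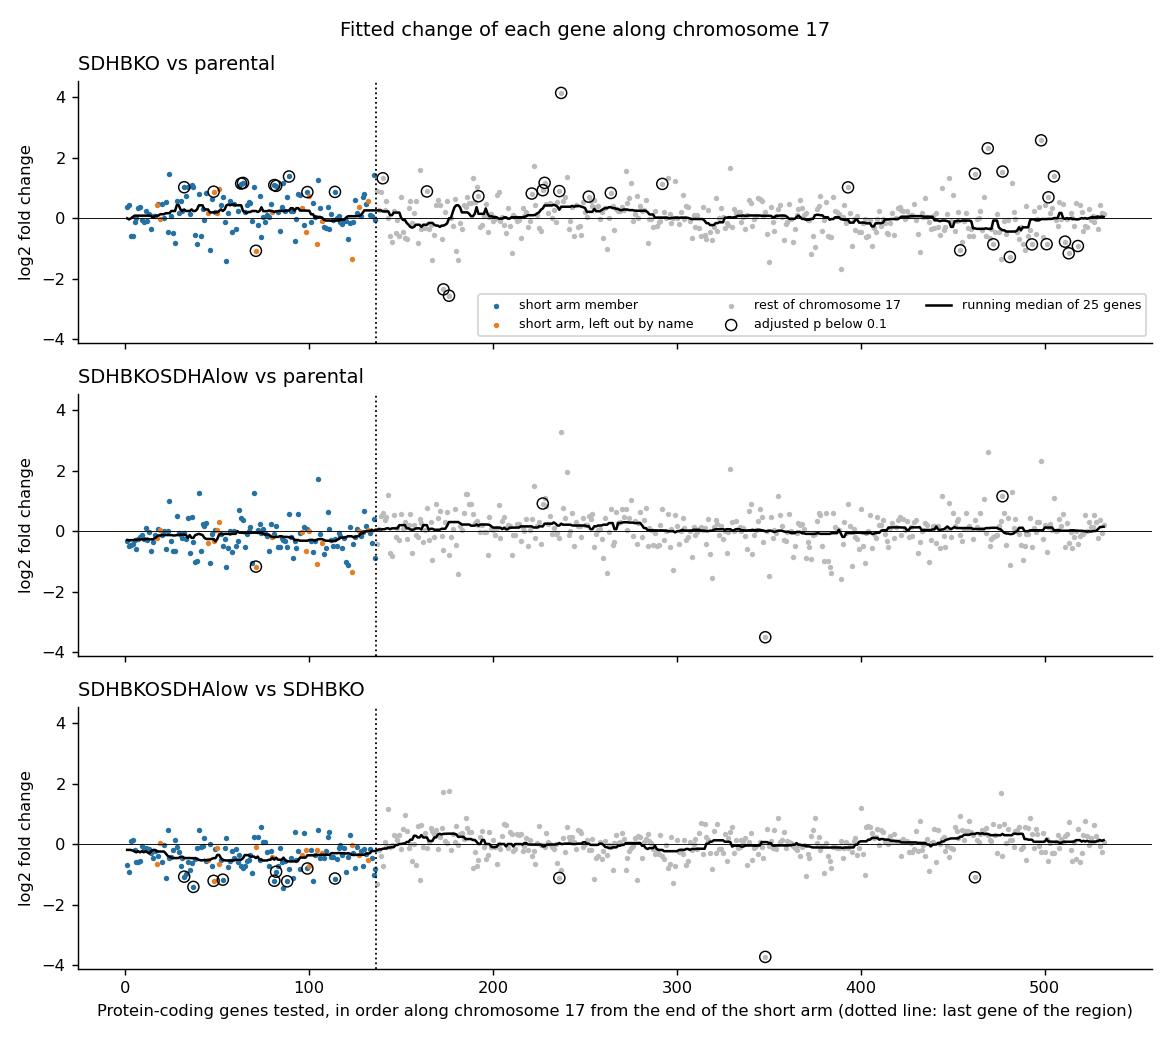
Fitted log2 fold change (vertical axis) of each protein-coding gene tested, in order along chromosome 17 (horizontal axis), in the 3 comparisons. Colours mark members, short arm genes left out by name and the rest of the chromosome, rings mark an adjusted p below 0.1, and the line is the running median of 25 genes. In SDHBKOSDHAlow vs SDHBKO the running median lies below 0 up to the dotted line, past which the 396 genes have a median of 0.063.

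Taken as a whole, the rest of chromosome 17 past 20 Mb did not show these medians. Its 396 genes had medians of 0.020 (SDHBKO against parental), 0.069 (SDHBKOSDHAlow against parental) and 0.063 (SDHBKOSDHAlow against SDHBKO). In the first comparison 18 of them were called higher and 10 lower, 7.07% in all, near the 6.67% of members called. In the last, 0 were called higher and 3 lower. The 16 tested arm genes left out by name had medians of 0.19, -0.21 and -0.35, with 15 of 16 below 0 in the last comparison. At the 20 Mb limit the last members inside were EPN2, an adaptor of clathrin-coated pits (1.44 in SDHBKO against parental and -1.02 in SDHBKOSDHAlow against SDHBKO cells), and B9D1, a protein of the ciliary transition zone (-0.058 and -0.82). The first genes outside were SPECC1 (0.90 and -1.31) and USP22 (0.26 and -0.19). The 5 tested genes from 20 to 25 Mb had medians of 0.87 and -0.38, with the same signs as the members' medians. The 33 from 25 to 30 Mb had medians of -0.21 and 0.23. The 20 Mb limit was fixed by the rule, not by where the arm or these values end. At the minimum on the mean count, MIEF2 (5.0) and PLD6 (5.02) were just inside and KCTD11 (4.65) and C17orf97 (4.68) just outside. Among 84 windows of 20 Mb with at least 30 tested genes over the genome, this one (136 genes, those left out by name included) had the 3rd lowest median in SDHBKOSDHAlow against SDHBKO cells (-0.41), where the windows from 0 to 20 Mb of chromosomes 20 (-0.78) and 12 (-0.63) were lower. It had the 6th lowest in SDHBKOSDHAlow against parental cells and the 8th highest in SDHBKO against parental cells.

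By role, every list had a median below 0 in SDHBKOSDHAlow against SDHBKO cells. Such medians are likely in any list drawn from the members, as 102 of the 120 were below 0 in this comparison. Medians below 0 and counts of members below 0 in this comparison, here and below, are therefore not a result about a role. In SDHBKO against parental cells all but the list for ubiquitin and protein turnover had a median above 0. The 26 members of the list for transcription, chromatin and RNA had a median of 0.20 in SDHBKO against parental cells. Called higher were 2 (FXR2, MED31), 7.69% of the list against 3.14% of all genes. In SDHBKOSDHAlow against SDHBKO cells the median was -0.49, with 21 below 0. Called lower were 2 (FXR2, CHD3), 7.69% against 1.19% of all genes. Counts of calls in lists this small, here and below, are not a result about a role. POLR2A, at 888 and 976 CPM in parental, 817, 1111 and 1061 in SDHBKO and 800.1, 813 and 882 in SDHBKOSDHAlow cells, overlapped between SDHBKO and both other groups. NAA38, a subunit of the N-terminal acetyltransferase NatC, fits this list only loosely. It had 519 and 627, then 617, 588 and 816, then 341, 688 and 334 CPM in the same order. SDHBKOSDHAlow replicate 2 was above the rest of its group. The subunits ELP5 of Elongator (-0.94) and MED9 of Mediator (-0.92), had every SDHBKOSDHAlow sample below every other sample without passing the test. PELP1, a coregulator of nuclear receptors, had a log2 fold change of 0.29 in SDHBKO and 0.23 in SDHBKOSDHAlow cells against parental cells, each with all samples above both parental ones and neither past the test.

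All 11 members of the mitochondrial list were below 0 in SDHBKOSDHAlow against SDHBKO cells, with a median of -0.42, and none passed the test. Against parental cells their median was 0.21 in SDHBKO and -0.19 in SDHBKOSDHAlow cells. The most abundant, CLUH, which binds messenger RNAs of mitochondrial proteins, differed from the arm's median. It had 1365 and 1515 CPM in parental cells, 965, 1162 and 982 in SDHBKO cells and 942, 821 and 997 in SDHBKOSDHAlow cells. Both modified groups were below the parental one and overlapped each other, with log2 fold changes against parental cells of -0.47 (SE 0.19) and -0.65 (SE 0.19, edgeR adjusted p = 0.15). ELAC2 stood at 93.7 and 110.2, then 142, 93.4 and 152, then 89.4, 106 and 89.3 CPM, with overlap between all groups.

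The list for membrane traffic, lipids and the secretory pathway (21 members) had a median of 0.17 in SDHBKO against parental cells. TRAPPC1 and MPDU1 were called higher there (9.52% of the list against 3.14% of all genes). In SDHBKOSDHAlow against SDHBKO cells the median was -0.41, with 18 below 0 and MPDU1 called lower (4.76% against 1.19% of all genes). CTDNEP1, a phosphatase of the nuclear envelope, had 908 and 897 CPM in parental, 1248, 1141 and 1441 in SDHBKO and 882, 1281 and 827 in SDHBKOSDHAlow cells. Its SDHBKO samples were above the parental ones, and SDHBKOSDHAlow replicate 2 lay among them. EMC6, of the endoplasmic reticulum membrane complex, had 537 and 605, then 734, 599 and 689.8, then 545, 486 and 442 CPM, with every SDHBKOSDHAlow sample below every SDHBKO one. PEMT, which methylates phosphatidylethanolamine to phosphatidylcholine, was lower than in parental cells in both modified groups. It had 49.2 and 60.3 CPM in parental, 44.6, 25.3 and 32.0 in SDHBKO and 22.7, 29.5 and 23.1 in SDHBKOSDHAlow cells. The log2 fold changes against parental cells were -0.70 and -1.10 (SE 0.33 and 0.34), neither past the test. RABEP1, an effector of Rab5 on endosomes, had the lowest fitted value against parental cells (-1.40 in SDHBKO cells), at 2.9 to 13.7 CPM, near the level of 3 counts. SPNS2, a sphingosine-1-phosphate transporter at 2.3 to 9.6 CPM, was 1.25 in SDHBKOSDHAlow against parental cells, and neither gene passed.

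Of the 15 members of the list for cytoskeleton, motors and mitosis, 14 were below 0 in SDHBKOSDHAlow against SDHBKO cells (median -0.41) and 14 in SDHBKOSDHAlow against parental cells (median -0.25), while the median of SDHBKO against parental cells was 0.068. CENPV was its only member called. KIF1C, a kinesin, and MYO1C, a myosin, overlapped between all groups (571 to 1071 and 322 to 573 CPM). MYH10, the heavy chain of non-muscle myosin IIB, had 12.6 and 15.7 CPM in parental, 20.3, 20.9 and 19.2 in SDHBKO and 11.9, 5.2 and 9.9 in SDHBKOSDHAlow cells. No groups overlapped, and its -1.20 (SE 0.45) in the last comparison did not pass. The one member above 0 there was ZSWIM7 (0.42), whose SDHBKOSDHAlow samples were all above the SDHBKO ones. ZSWIM7 belongs to a complex in homologous recombination and fits this list only loosely.

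The 11 members for signalling and growth control had medians of 0.037, -0.10 and -0.12 (SDHBKO against parental, SDHBKOSDHAlow against parental, SDHBKOSDHAlow against SDHBKO). In the last 7 were below 0, and none was called in any. YWHAE, the epsilon 14-3-3 protein, had 350 and 321, then 284, 312 and 327, then 240, 321 and 277 CPM, overlapping between SDHBKO and each other group. MAP2K4 had the largest positive value of any member against parental cells (1.72 in SDHBKOSDHAlow cells, SE 0.77), at 2.3 to 14.3 CPM, and did not pass.

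The 6 members for ubiquitin and protein turnover and the 6 for small-molecule metabolism were all below 0 in SDHBKOSDHAlow against SDHBKO cells, with medians of -0.18 and -0.39. In SDHBKO against parental cells the medians were -0.027, with 3 of 6 below 0, and 0.26, with 1 of 6 below 0. UBB, the most abundant member, had 3061 and 3377 CPM in parental, 3572, 2930 and 3297 in SDHBKO and 2084, 2652 and 2230 in SDHBKOSDHAlow cells, so that the last group was below both others. The difference from SDHBKO cells (-0.49, SE 0.17) did not pass. UBE2G1, a ubiquitin-conjugating enzyme, was at 44.6 and 43.3 CPM in parental, 25.7, 25.3 and 22.4 in SDHBKO and 21.5, 16.9 and 29.8 in SDHBKOSDHAlow cells. Both modified groups were below the parental one (-0.85 and -0.97, SE 0.36 and 0.35), and neither difference passed. COPS3, of the COP9 signalosome, had 66.3 and 69.5, then 77.1, 67.0 and 50.1, then 65.6, 56.0 and 55.1 CPM. NXN, nucleoredoxin, had 222 and 245 CPM in parental, 249, 263 and 365 in SDHBKO and 159, 237 and 183 in SDHBKOSDHAlow cells (-0.60, SE 0.21, against SDHBKO cells). SAT2, of the diamine acetyltransferase family, had 45.7 and 57.7, then 66.2, 43.9 and 68.2, then 31.0, 34.6 and 43.0 CPM. Neither passed the test, although every SDHBKOSDHAlow sample of both was below every SDHBKO sample.

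The 24 members in no list had medians of 0.40, -0.065 and -0.49 in the same order. DLG4, P2RX5 and RANGRF were called higher in SDHBKO against parental cells (12.5% against 3.14% of all genes). Called lower in SDHBKOSDHAlow against SDHBKO cells were P2RX5, CAMTA2 and RANGRF (12.5% against 1.19% of all genes). DNAH2, a dynein heavy chain of cilia, had the lowest value of any member against SDHBKO cells (-1.45, SE 0.58), at 2.2 to 12.1 CPM, and did not pass. RAP1GAP2, which switches off Rap1, had 35.4 and 45.9, then 28.4, 19.8 and 21.3, then 23.8, 24.3 and 28.7 CPM, so that both modified groups were below parental cells. So were those of C17orf114 (7.5 to 10.8 and 5.9 to 13.2 against 14.9 and 22.3 CPM), and neither gene passed. NLGN2, a synaptic adhesion protein, was the highest against SDHBKO cells (0.58, SE 0.60) at 3.9 to 12.6 CPM.

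**Figure D5:**
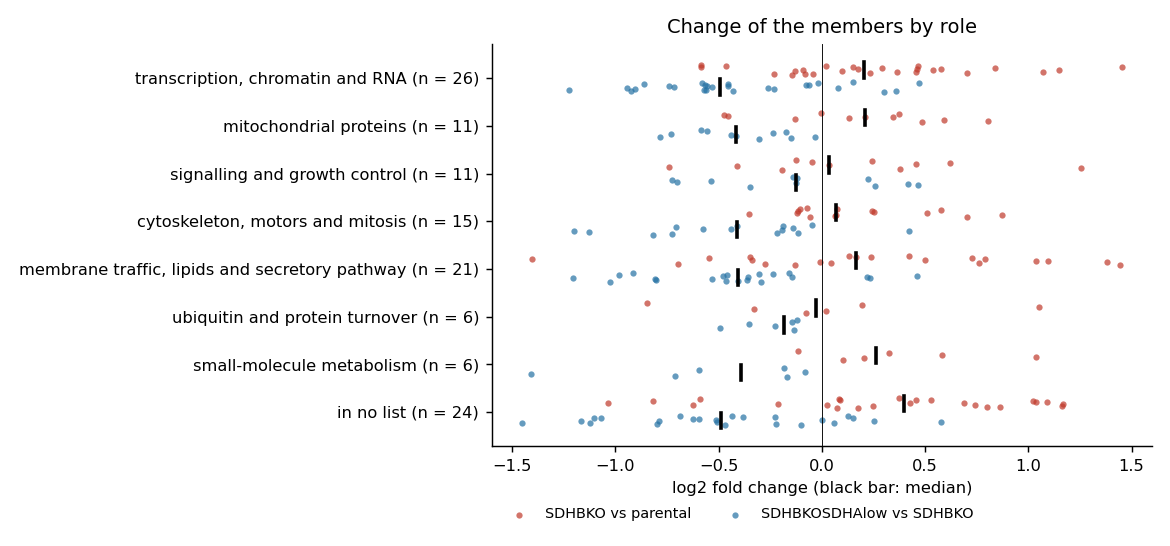
Log2 fold change (horizontal axis) of each member by role list (rows, with the number of members), for SDHBKO vs parental and SDHBKOSDHAlow vs SDHBKO. Points are genes and bars are medians. In SDHBKOSDHAlow vs SDHBKO every list has a median below 0, from -0.49 to -0.12, which is likely where most members are below 0.

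The median difference between SDHBKOSDHAlow and SDHBKO cells was largest in the 40 most abundant members and smallest in the middle 40. The 40 with the highest mean counts (58.0 and above) had a median of -0.54, with 39 below 0 and 7 called. The median was -0.23 (31 below 0, none called) in the middle 40 and -0.31 (32 below 0, 1 called) in the lowest 40. The share of all genes called at such mean counts is not given here. These calls therefore do not show a larger difference in abundant members. The members' last 300 bases held a median of 45.8% G and C against 43.7% over all genes tested. With a correction for this content the medians were 0.17, -0.17 and -0.40 (SDHBKO against parental, SDHBKOSDHAlow against parental, SDHBKOSDHAlow against SDHBKO).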

How the data were processed

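Raw gene counts of 8 QuantSeq libraries were deposited by the authors, who trimmed reads (Trimmomatic), removed ribosomal and mitochondrial reads (Sortmerna), and aligned and counted on GRCh38, release 87, with STAR 2.5.2b. Files of a second kind, counts divided by a size factor (a normalized signal, made by the authors with DESeq2), were used only as a check: those of SDHBKO replicates 1 and 3 match the raw counts of 3 and 1, and raw files were used under their own labels. Reads on no single gene (18.8% to 28.6%) were left out.

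Genes with a mean normalized count above 5 (7550 of 58051) were tested in R 4.3.3 with edgeR 4.0.16 (TMM, quasi-likelihood, 3 groups and 8 samples in 1 fit, 5 residual degrees of freedom, Benjamini-Hochberg adjusted p below 0.1 over all genes). The biological coefficient of variation was 21.5%. CPM are TMM-normalized, and log2 CPM used a prior count of 2. Positions and biotypes came from GENCODE 44, also GRCh38 (7539 of the 7550 IDs). The fit was checked on simulated data whose changes were larger than that of any member. That check does not measure how sure the calls here are. Replicates of a group differed by more than sampling noise (chi-squared per degree of freedom 2.19 to 11.3), and intervals of counting error are not given because the spread between replicates was used.

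The members, role lists and tests were chosen with earlier results of these data known. Genes named are members called in any comparison (at most 12 each), the 5 of largest change in each direction and comparison among those whose groups do not overlap, the 10 most abundant, the 2 on either side of each threshold, and the 2 most abundant of each role list (1 gene so chosen is not reported here); SDHA, SDHB and line markers were checked beside them, GLOD4 and SGSM2 were named after their values were seen, and genes that overlap a called member were named by position. Alternatives were DESeq2 1.42.0 and its size factors, other filters, an adjusted p of 0.05, fits of 2 groups, the replicate number as a block, GC content of the last 300 bases, other member rules and leaving out each sample. A block with SDHBKO replicates 1 and 3 exchanged was added after the data were seen.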

Additional observations from a re-analysis of the deposited data

How the results depend on the processing

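The median log2 fold change of the members kept its sign in every alternative run. Leaving out 1 sample moved it from 0.158 to 0.316 (SDHBKO against parental; 0.316 without parental replicate 2), from -0.215 to -0.149 (SDHBKOSDHAlow against parental) and from -0.46 to -0.374 (SDHBKOSDHAlow against SDHBKO). The number of members called was less stable: against 8, 0 and 8, leaving out 1 sample gave 0 to 17, 0 to 1 and 4 to 25. For SDHBKO against parental cells, a fit of only these 2 groups called 14 and an adjusted p below 0.05 left 5. Shares of all genes called in the alternatives are not given here. For SDHBKOSDHAlow against parental cells, DESeq2 and putting back the genes left out by name each called 1. Replicate numbers did not pair the samples: deviations of same-numbered samples from their group means had r of -0.27 to 0.093 over 7 pairs. With the replicate block, 6, 0 and 5 members were called, with medians of 0.217, -0.206 and -0.42; with SDHBKO replicates 1 and 3 exchanged in the block, 3, 0 and 5. The cause of these shifts was not tested. Among values of single named genes, 1909 kept their status, called or not, and their sign. Most of these were never called, so that number does not measure how stable the calls are. Another 60 that were not called changed sign, 59 lost their call, 15 gained one and none reversed. The 59 losses all fall on the 8 and 8 calls above, each tried in 8 fits that leave out 1 sample and in 8 others. At 773042 to 1427141 reads per library, the members nearest the minimum, MIEF2 and PLD6, rest on 0 to 10 reads a sample. Parental cells have 2 samples, and a fit without 1 of them assumes that the lone sample varies like the other groups.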
